A study of Homo sapiens with 12 samples.

Results

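The genes that encode the inhibitors of cyclin-dependent kinases (CDKs) were followed in MIB1-iKO cells, a derivative of the lung cancer line NCIH838 in which doxycycline (Dox) induces Cas9 and thereby the knockout (KO) of MIB1, an E3 ubiquitin ligase. The members were all rows of the count table whose Ensembl identifier carries 1 of 7 gene symbols in GENCODE v44, which gave 7 of the 58302 genes listed. The CIP/KIP family holds 3 of them, CDKN1A (p21), CDKN1B (p27) and CDKN1C (p57), and the INK4 family 4, CDKN2A (p16), CDKN2B (p15), CDKN2C (p18) and CDKN2D (p19). This rule used gene symbols alone. The 12 RNA-seq libraries formed 4 groups of 3 replicates. All cells spent 3 days in 50 nM LDN, which inhibits BMP type I receptors, and then 24 hours with 10 ng/mL BMP4. In the BMP-off groups LDN stayed at 50 nM during these hours, whereas in the BMP-on groups DMSO took its place, so that the inhibitor was washed out. The MIB1 KO groups had 0.5 ug/mL Dox during the 3 days and the MIB1 WT groups had none. Every KO library and no WT library thus had Dox, and effects of Dox or of Cas9 cannot be told apart from those of MIB1 loss. Every library had BMP4, so BMP-on and BMP-off differ only in LDN during the last 24 hours. Other effects of LDN cannot be told apart from those of BMP signaling. A change with BMP means BMP-on against BMP-off throughout. MIB1-iKO cells were made as clones of single cells, and the sources used here do not name the clone sequenced or say whether replicates were separate cultures, so p-values measure the spread between these libraries, which may be technical.

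CIP/KIP proteins bind complexes of cyclins with CDK2, CDK1 and CDK4 or CDK6. INK4 proteins bind CDK4 and CDK6 alone and keep cyclin D from joining them. Both routes leave the RB family with less phosphate and E2F-driven genes of DNA replication less active. In epithelial cells, ligands of the TGF-β family are known to slow the cell cycle, and CDKN1A and CDKN2B are the inhibitor genes most often linked to that arrest. RNA-seq reports transcript, and p21 and p27 are also controlled through breakdown of the protein.

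Total counts per library ranged from 19124010 to 29498000. MIB1, the gene targeted, had 144 to 176 CPM (counts scaled to a common library size with edgeR's TMM factors) in the WT libraries and 31.0 to 34.4 CPM in the KO libraries. Epithelial markers were present, KRT8 at 92.7 to 192 CPM, KRT18 at 139 to 165 CPM, EPCAM at 4.93 to 9.83 CPM and CDH1 at 5.44 to 9.35 CPM, whereas KRT19 stayed below 0.11 CPM. Of the lung lineage markers, NKX2-1, SFTPB and SFTPC had at most 2 counts in any library, and NAPSA at most 1.03 CPM. PTPRC, of leukocytes, was at 0 in all libraries, PECAM1 and VWF of endothelium were below 0.77 CPM, and of the fibroblast genes COL1A1 reached 41.0 CPM while COL1A2 had at most 5 counts. Within groups, the deviation of counts tracked transcript GC, and Spearman's rho across genes ran from -0.60 in KO BMP-off replicate 2 to 0.59 in KO BMP-off replicate 3. The longest transcripts of the tested members hold 42.7% GC in CDKN1B, 58.0% in CDKN1A, 58.1% in CDKN2C, 61.2% in CDKN2D and 63.8% in CDKN1C.

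The sequences just upstream of the inhibitor genes are given first, because 2 members that responded to BMP, CDKN1A and CDKN2C, can be set beside CDKN1B, which did not pass any test. Starts of 6 of the 7 members, 9 in all, were taken from the RefSeq (GRCh38.p14) table used here, and CDKN1C is named only. Each sequence holds the 250 bases before the start, 5′ to 3′ on the strand of the gene, which is the plus strand for these 3 genes. Capitals mark matches, on either strand, to GGGCGG (the GC box bound by SP1 and KLF factors), GGCGCC (a GC-rich motif of SMAD proteins), CACGTG (the E-box of MYC and MAX), GTCTAGAC (a SMAD palindrome) and TTTCGCGC or TTTGGCGC (E2F motifs). CDKN1A is taken from chr6:36678464-36678713, CDKN2C from chr1:50960495-50960744 (start 1), chr1:50968456-50968705 (start 2) and chr1:50969995-50970244 (start 3), and CDKN1B from chr12:12717118-12717367.
CDKN1A: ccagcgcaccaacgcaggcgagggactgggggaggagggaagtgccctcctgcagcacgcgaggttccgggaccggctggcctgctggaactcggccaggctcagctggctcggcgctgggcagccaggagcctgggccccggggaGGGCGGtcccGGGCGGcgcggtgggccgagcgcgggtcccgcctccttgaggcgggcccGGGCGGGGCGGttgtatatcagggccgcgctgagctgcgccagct
CDKN2C, start 1: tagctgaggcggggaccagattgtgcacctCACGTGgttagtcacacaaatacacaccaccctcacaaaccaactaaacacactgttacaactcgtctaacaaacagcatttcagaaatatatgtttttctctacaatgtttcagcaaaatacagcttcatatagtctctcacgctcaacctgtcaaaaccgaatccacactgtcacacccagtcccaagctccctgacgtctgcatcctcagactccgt
CDKN2C, start 2: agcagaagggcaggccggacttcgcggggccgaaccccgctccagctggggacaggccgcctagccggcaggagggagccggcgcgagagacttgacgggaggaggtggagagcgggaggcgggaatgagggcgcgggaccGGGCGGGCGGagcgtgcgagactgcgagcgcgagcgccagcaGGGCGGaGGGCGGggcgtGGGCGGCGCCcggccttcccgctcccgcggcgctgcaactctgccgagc
CDKN2C, start 3: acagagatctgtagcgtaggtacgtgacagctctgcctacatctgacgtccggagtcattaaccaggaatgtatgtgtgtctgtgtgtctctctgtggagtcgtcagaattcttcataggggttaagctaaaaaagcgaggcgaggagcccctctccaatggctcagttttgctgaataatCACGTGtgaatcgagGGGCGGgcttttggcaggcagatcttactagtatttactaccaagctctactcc
CDKN1B: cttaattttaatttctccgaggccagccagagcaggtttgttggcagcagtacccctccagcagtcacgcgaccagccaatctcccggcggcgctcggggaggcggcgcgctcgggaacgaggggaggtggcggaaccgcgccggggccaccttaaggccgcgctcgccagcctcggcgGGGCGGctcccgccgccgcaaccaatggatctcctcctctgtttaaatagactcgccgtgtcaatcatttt

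The CDKN1A sequence held 4 GC boxes within 104 bases of the start, of which the nearest pair, beginning 45 and 40 bases before it, shares 1 base. Of 35116 promoters of the same length, 42.6% held a GC box and 7.63% at least 4. CDKN2C had 5 GC boxes before its start 2, of which the farthest pair shares 2 bases, and 4.15% of all promoters hold at least 5. Before start 3 it had 1. Start 2 also carried the only GGCGCC among the members, 45 bases upstream and overlapping a GC box, and 16.4% of all promoters hold that motif. E-boxes stood before starts 1 and 3 of CDKN2C, against 6.34% of all promoters. The CDKN1B sequence held 1 GC box. CDKN2D and CDKN2B had 2 GC boxes each, and CDKN2A had 1 before 1 of its 2 starts. No member held GTCTAGAC, TTTCGCGC or TTTGGCGC in these windows, which 0.182%, 0.439% and 0.55% of all promoters do. GC made up 76.4% of the CDKN1A sequence and 77.2% of that before start 2 of CDKN2C, with a median of 58.0% over all promoters. These matches describe letters, not binding, and the counts do not tell which CDKN2C start was used.

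The first question was which inhibitor genes respond when BMP signaling is released. In MIB1 WT cells, CDKN1A and CDKN2C were higher with BMP-on than with BMP-off, and no member was lower. CDKN1A, known for its part in cell-cycle arrest after DNA damage, increased 2.27-fold and CDKN2C 1.35-fold. Of the 5 members left by edgeR's low-count filter, these 2 had an adjusted p of at most 0.05 (edgeR quasi-likelihood test, Benjamini-Hochberg), against 1.91% higher and 2.01% lower among all 17188 genes tested. Only CDKN1A among them also had a log2 fold change of at least 1, the size the study required, which 0.425% of all genes reached together with the adjusted p.

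CDKN1A (ENSG00000124762, chromosome 6, 36676460 to 36687337, plus strand) had 38.4, 43.3 and 43.2 CPM in the WT BMP-off libraries and 105, 88.6 and 90.1 CPM in the WT BMP-on libraries. All 3 BMP-on libraries lay above all BMP-off libraries, with the nearest values 88.6 and 43.3 CPM. The share of all genes whose groups separate like this was not counted, for this or any later comparison of ranges. The group means were 41.6 ± 2.78 and 94.5 ± 9.05 CPM (SD, n = 3 each). The log2 fold change (log2FC) was 1.18 (SE, standard error, 0.074, 95% interval 1.03 to 1.34, edgeR adjusted p = 7.17e-08). Ordered by log2FC, it ranked 44 among the 328 genes higher in this comparison.

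CDKN2C (ENSG00000123080, chromosome 1, 50960745 to 50974634, plus strand), which encodes the INK4 inhibitor p18, had 48.6, 52.9 and 52.98 CPM in the WT BMP-off libraries. In the WT BMP-on libraries it had 71.6, 66.1 and 71.4 CPM, and again the groups did not overlap. Its mean went from 51.5 ± 2.51 to 69.7 ± 3.11 CPM (SD, n = 3 each), a log2FC of 0.44 (SE 0.057, 95% interval 0.32 to 0.56, edgeR adjusted p = 2.11e-04). This interval lies below that of CDKN1A, 1.03 to 1.34, so that the INK4 gene gave the smaller response. By log2FC, CDKN2C ranked 195 among the 328 genes higher.

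**Figure D1:**
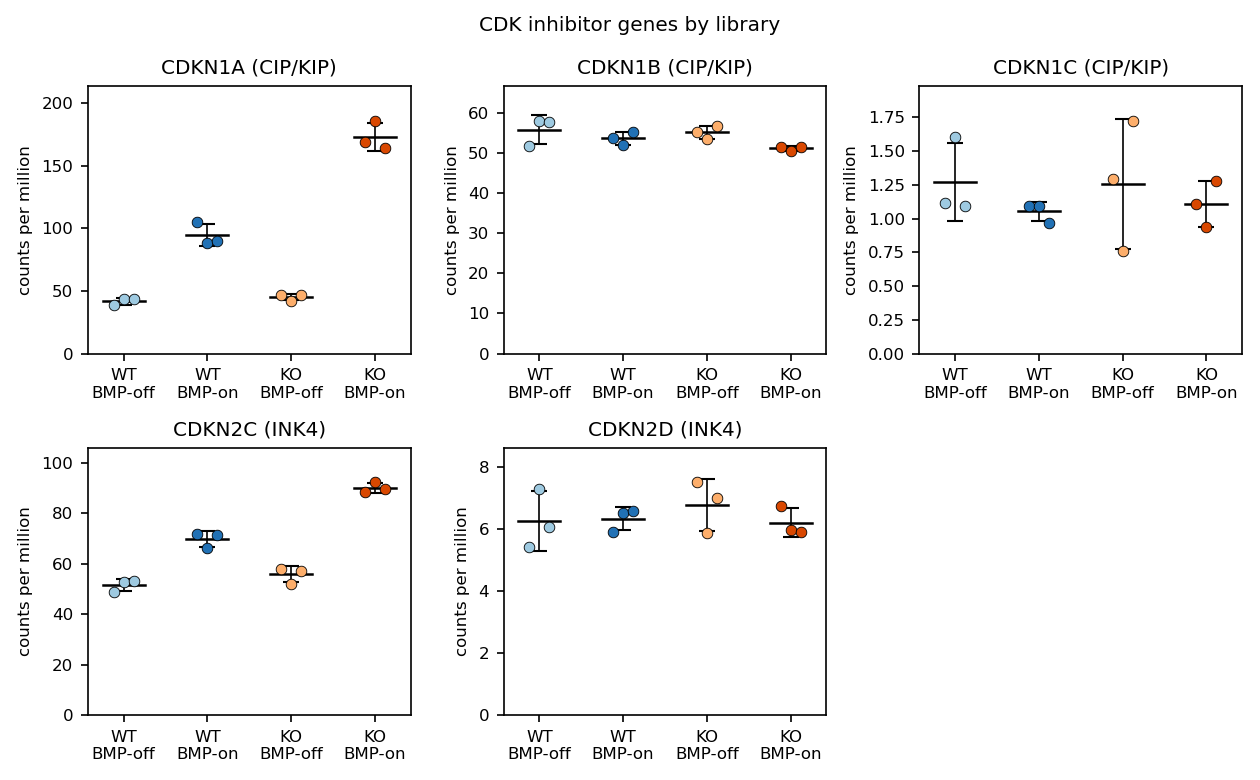
CPM of the 5 CDK inhibitor genes with counts, 1 panel a gene, with the groups on the horizontal axis; points are libraries, horizontal lines group means and bars the SD (n = 3). The 3 KO BMP-on libraries are highest for CDKN1A and for CDKN2C, followed by the 3 WT BMP-on libraries, while the groups overlap for CDKN1C and CDKN2D.

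In MIB1 KO cells the same 2 members were higher with BMP-on, by larger amounts. CDKN1A had 46.4, 42.3 and 46.9 CPM with BMP-off and 169, 186 and 164 CPM with BMP-on, a 3.83-fold increase of the fitted level. Every KO BMP-on library had at least 164 CPM and no library of another group above 105 CPM. Means were 45.2 ± 2.54 and 173 ± 11.3 CPM (SD, n = 3 each), and the log2FC was 1.94 (SE 0.074, 95% interval 1.78 to 2.09, edgeR adjusted p = 4.50e-11). By log2FC it ranked 35 among the 1903 genes higher here.

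CDKN2C had 57.9, 52.1 and 57.2 CPM in the KO BMP-off libraries and 88.3, 92.1 and 89.5 CPM in the KO BMP-on libraries. The lowest KO BMP-on library exceeded the highest WT BMP-on library, 71.6 CPM. Its log2FC was 0.69 (SE 0.057, 95% interval 0.57 to 0.81, edgeR adjusted p = 3.90e-07), a 1.61-fold increase from a mean of 55.7 ± 3.20 to 90.0 ± 1.95 CPM (SD, n = 3 each). By log2FC, CDKN2C ranked 525 among the 1903 genes higher. In KO cells 11.1% of all genes tested were higher and 10.9% lower at the adjusted threshold, and 1.66% passed with a log2FC of at least 1, as CDKN1A did.

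The other CIP/KIP genes did not pass the test. CDKN1B (ENSG00000111276, chromosome 12, 12685498 to 12722369, plus strand), whose protein p27 is held to be governed mostly by its breakdown, had 51.8, 58.1 and 57.8 CPM in WT BMP-off and 53.7, 52.1 and 55.4 CPM in WT BMP-on libraries. In KO cells it had 55.2, 53.6 and 56.9 CPM with BMP-off and 51.6, 50.5 and 51.6 CPM with BMP-on. The WT groups overlapped. In KO cells all 3 BMP-on values were below all 3 BMP-off values by small amounts, a difference that did not pass the test and is not read as a fall. How many of all genes separate in this way was not counted. With BMP the log2FC of CDKN1B was -0.06 in WT cells (95% interval -0.17 to 0.06, edgeR adjusted p = 0.696) and -0.11 in KO cells (95% interval -0.22 to 0.01, edgeR adjusted p = 0.179). Both intervals leave out an increase of the size seen for CDKN2C in the same cells.

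CDKN1C (ENSG00000129757, chromosome 11, 2883213 to 2885775, minus strand), an imprinted gene, was barely expressed, with 18 to 41 counts per library. Its level was 1.11, 1.61 and 1.09 CPM in WT BMP-off, 1.10, 1.09 and 0.97 CPM in WT BMP-on, 1.29, 0.763 and 1.72 CPM in KO BMP-off and 1.11, 0.94 and 1.28 CPM in KO BMP-on libraries. All 4 groups overlapped. With BMP its log2FC was -0.26 in WT cells (95% interval -0.82 to 0.29, edgeR adjusted p = 0.703) and -0.16 in KO cells (95% interval -0.72 to 0.40, edgeR adjusted p = 0.710). Single libraries moved these values. Leaving out WT BMP-off replicate 2 gave -0.07 in WT cells, and leaving out KO BMP-off replicate 3 gave 0.10 in KO cells.

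Among the INK4 genes, CDKN2D (ENSG00000129355, chromosome 19, 10566460 to 10569059, minus strand), which encodes p19, had 114 to 215 counts per library. It had 5.43, 7.30 and 6.05 CPM in WT BMP-off, 5.91, 6.50 and 6.57 CPM in WT BMP-on, 7.50, 5.86 and 6.98 CPM in KO BMP-off and 6.74, 5.95 and 5.90 CPM in KO BMP-on libraries. These groups overlapped as well. With BMP its log2FC was 0.02 in WT cells (95% interval -0.24 to 0.29, edgeR adjusted p = 0.951) and -0.13 in KO cells (95% interval -0.40 to 0.14, edgeR adjusted p = 0.500). After a correction for the GC trend of each library the KO value became -0.44 and passed the threshold (edgeR adjusted p = 0.00413), so that the call on CDKN2D depends on that correction.

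CDKN2A (ENSG00000147889, chromosome 9, 21967752 to 21995301, minus strand) and CDKN2B (ENSG00000147883, chromosome 9, 22002903 to 22009305, minus strand) had 0 counts in all 12 libraries, did not pass the filter and were not tested. A count of 0 allows up to 3 counts, which corresponds to 0.103 to 0.157 CPM depending on the library, for counting error only. CDKN2A encodes p16 and, in another reading frame, ARF, and CDKN2B encodes p15. CDKN2A and CDKN2B together make up 2 of the 4 INK4 genes, and the INK4 signal in these cells came from CDKN2C and CDKN2D.

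Neighbors of CDKN2A and CDKN2B were at or near 0 too. MTAP, an enzyme of methionine salvage whose body ends 30101 bases from that of CDKN2A, had 1 count in 1 library and 0 in the others. Since every gene next to them was near 0, the stretch was followed, after these values were seen, to the nearest protein-coding gene on each side with at least 10 counts in every library. These were FOCAD, with 213 to 337 counts, and ELAVL2, with 35 to 92 counts. Between them, from 20995956 to 23690103 (2694 kb), 22 protein-coding genes are listed, and 21 of them had 0 counts in every library, MTAP being the exception. Most of the 22 belong to the type I interferon cluster, and the others are HACD4, KLHL9, MTAP, CDKN2A, CDKN2B and DMRTA1. The share of zeros among all protein-coding genes of the series was not counted. Of all 63 genes listed in the stretch, 56 were at 0 in every library, as were 23684 of the 58302 genes in the whole series. The stretch ends at protein-coding genes with at least 10 counts in every library, so no protein-coding gene inside could meet that limit. Low counts of the protein-coding genes inside the stretch were thus partly set by this rule. The highest counts belonged to the processed pseudogenes CLIC4P1 (186 to 340 counts), KHSRPP1 (35 to 54 counts) and UBA52P6 (2 to 7 counts), copies of genes elsewhere in the genome whose reads may be counted there, so that these values are uncertain. The same zeros stood in MIB1 WT and KO cells and with BMP-off and BMP-on. Whether the DNA of the stretch is present was not tested, as these files measure RNA.

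**Figure D2:**
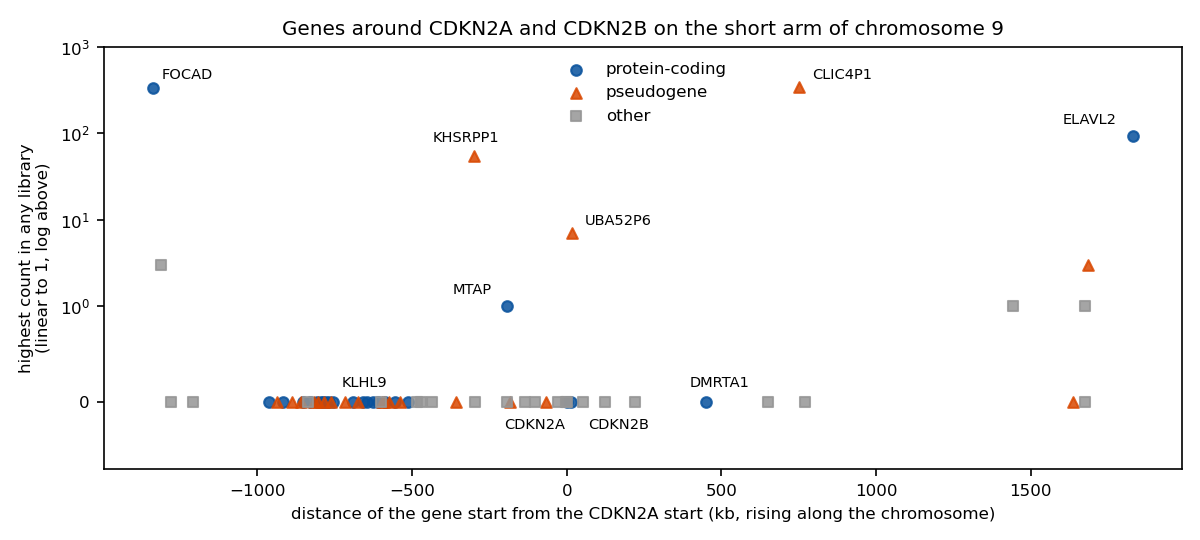
Highest count in any of the 12 libraries (vertical axis, linear to 1 and logarithmic above) for each gene listed from FOCAD to ELAVL2, placed by the distance of its start from the CDKN2A start in kb; circles are protein-coding genes, triangles pseudogenes and squares other genes. All protein-coding genes between FOCAD and ELAVL2 lie at 0 except MTAP at 1, while the pseudogenes UBA52P6, KHSRPP1 and CLIC4P1 reach 7, 54 and 340.

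Levels of different members can be compared per length, for which the deposited RPKM values (read counts scaled to gene length and sequencing depth) were used. With BMP-off the order by mean RPKM in WT cells was CDKN1B (22.0 ± 1.23), CDKN1A (17.4 ± 1.02), CDKN2C (16.2 ± 0.663), CDKN2D (4.36 ± 0.628) and CDKN1C (0.648 ± 0.144; SD, n = 3 each), with CDKN2A and CDKN2B at 0. CDKN1A and CDKN2C were neighbors whose ranges overlapped there, 16.2 to 18.0 and 15.5 to 16.7 RPKM. In KO cells with BMP-off the order was the same, with CDKN1B at 21.9 ± 0.242 and CDKN2C at 17.7 ± 0.722 RPKM (SD, n = 3 each) and CDKN1A at 18.2 to 19.4 RPKM between them.

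BMP-on put CDKN1A first. In WT cells CDKN1A reached 39.0 ± 3.83 RPKM, followed by CDKN2C at 21.7 ± 0.984 and CDKN1B at 20.9 ± 0.636 RPKM (SD, n = 3 each), and the last 2 overlapped in range. In KO cells CDKN1A reached 70.9 ± 4.77, CDKN2C 27.9 ± 0.684 and CDKN1B 19.8 ± 0.208 RPKM (SD, n = 3 each), and these 3 ranges did not overlap. CDKN2D stayed between 3.82 and 5.25 RPKM and CDKN1C between 0.402 and 0.873 RPKM over all libraries.

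As a share of the RPKM summed over the family, CDKN1A made up 28.4% to 28.9% in WT BMP-off, 29.6% to 29.7% in KO BMP-off, 43.2% to 47.5% in WT BMP-on and 56.3% to 59.1% in KO BMP-on libraries. The CDKN1B share went the other way at a nearly level RPKM, from a mean of 36.3% in WT BMP-off to 16.1% in KO BMP-on cells. The CDKN2C share was 26.3% to 27.3% in WT BMP-off, 27.5% to 28.0% in KO BMP-off, 24.5% to 25.9% in WT BMP-on and 22.2% to 23.2% in KO BMP-on libraries, lower with BMP-on although its own RPKM rose. The summed RPKM was 56.7 to 63.0 in WT BMP-off, 61.5 to 65.5 in KO BMP-off, 82.4 to 91.4 in WT BMP-on and 120 to 129 in KO BMP-on libraries. CIP/KIP genes supplied 64.0% to 66.4% of it with BMP-off, 68.8% to 71.0% in WT BMP-on and 73.5% to 74.7% in KO BMP-on libraries, and INK4 genes the rest. When CPM was divided by the longest annotated transcript instead, the mean CDKN1B share in WT cells with BMP-off was 23.9% in place of 36.3% and CDKN1A came first in all 4 groups, so that the order of CDKN1A, CDKN1B and CDKN2C with BMP-off depends on the gene length used.

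**Figure D3:**
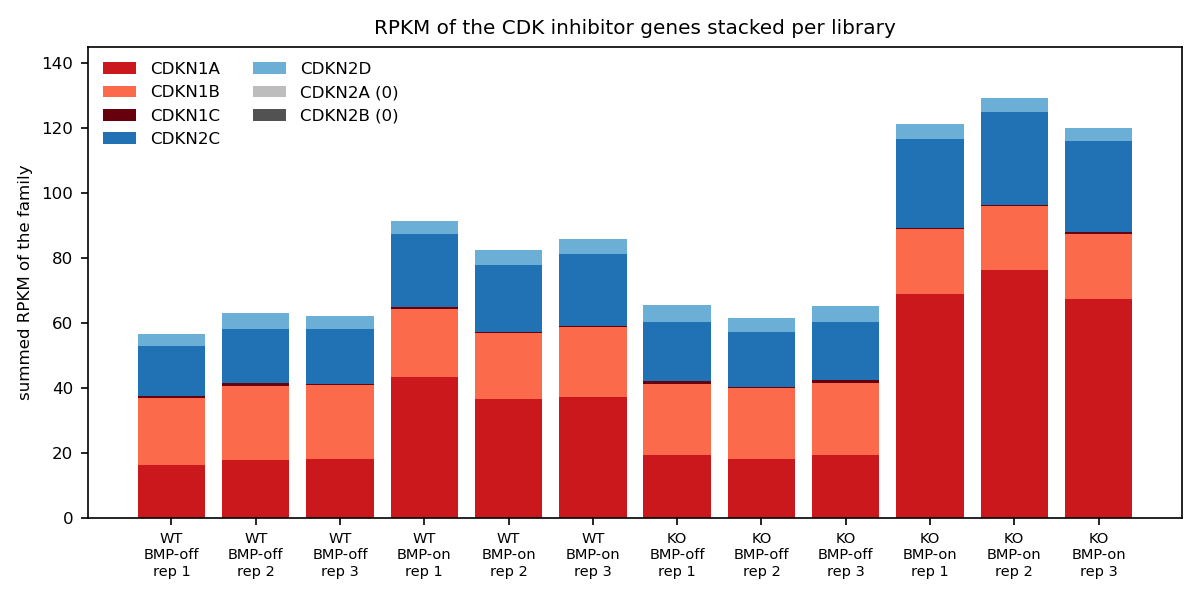
Deposited RPKM of the 7 CDK inhibitor genes stacked for each of the 12 libraries (CIP/KIP in reds, INK4 in blues). The total is 56.7 to 65.5 in the BMP-off libraries, 82.4 to 91.4 in WT BMP-on and 120 to 129 in KO BMP-on libraries, and most of the added height is CDKN1A.

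The next comparison set MIB1 KO against WT cells at the same BMP state. With BMP-on, CDKN1A and CDKN2C were higher in KO cells, and the other 3 tested members did not pass. Across all genes tested, 1.32% were higher and 2.34% lower. CDKN1A was higher by a log2FC of 0.87 (SE 0.071, 95% interval 0.72 to 1.02, edgeR adjusted p = 4.31e-06), a 1.83-fold difference of fitted levels that stays under the log2FC of 1. CDKN2C was higher by 0.37 (SE 0.056, 95% interval 0.25 to 0.49, edgeR adjusted p = 0.00123), which is 1.29-fold. By log2FC, CDKN1A ranked 40 and CDKN2C 155 among the 227 genes higher. The log2FC values of the rest were -0.07 for CDKN1B (95% interval -0.19 to 0.05), 0.09 for CDKN1C (95% interval -0.48 to 0.67) and -0.03 for CDKN2D (95% interval -0.30 to 0.24), with edgeR adjusted p values of 0.669, 0.934 and 0.961.

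With BMP-off, none of the 5 tested members passed in KO against WT cells, where 0.0407% of all genes were called in either direction. CDKN1A differed by a log2FC of 0.12 (95% interval -0.04 to 0.28, edgeR adjusted p = 0.591) and CDKN2C by 0.12 (95% interval -0.01 to 0.24, edgeR adjusted p = 0.512). Without the adjustment over all genes, p was 0.133 for CDKN1A and 0.0618 for CDKN2C in the same edgeR fit, and 1757 of the 17188 genes had an unadjusted p under 0.05. CDKN1B differed by -0.02 (95% interval -0.13 to 0.10), CDKN1C by -0.01 (95% interval -0.56 to 0.53) and CDKN2D by 0.12 (95% interval -0.14 to 0.39). For CDKN1A the interval ends at 0.28, below the lower end of the interval with BMP-on, 0.72.

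Whether MIB1 loss changed the BMP response was tested by the interaction, the response in KO minus that in WT cells. CDKN1A passed, with a difference of 0.75 on the log2 scale (SE 0.10, 95% interval 0.53 to 0.97, edgeR adjusted p = 0.00843), where 0.0407% of all genes were higher at that threshold. By size it ranked last, 7 among the 7 genes called higher. That call was lost with the replicate number as a block (0.75, edgeR adjusted p = 0.0509) and on the log2 scale of RPKM (0.72 to 0.73, limma adjusted p = 0.0571 to 0.0648), and it was kept without any single library, at 0.70 to 0.83. For CDKN2C the difference was 0.25 (SE 0.080, 95% interval 0.08 to 0.42), and it did not pass over all genes (edgeR adjusted p = 0.268). With the GC correction it was 0.10 (edgeR adjusted p = 0.597). CDKN1B (-0.05, 95% interval -0.22 to 0.11), CDKN1C (0.11, 95% interval -0.68 to 0.90) and CDKN2D (-0.15, 95% interval -0.53 to 0.23) did not pass either.

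**Figure D4:**
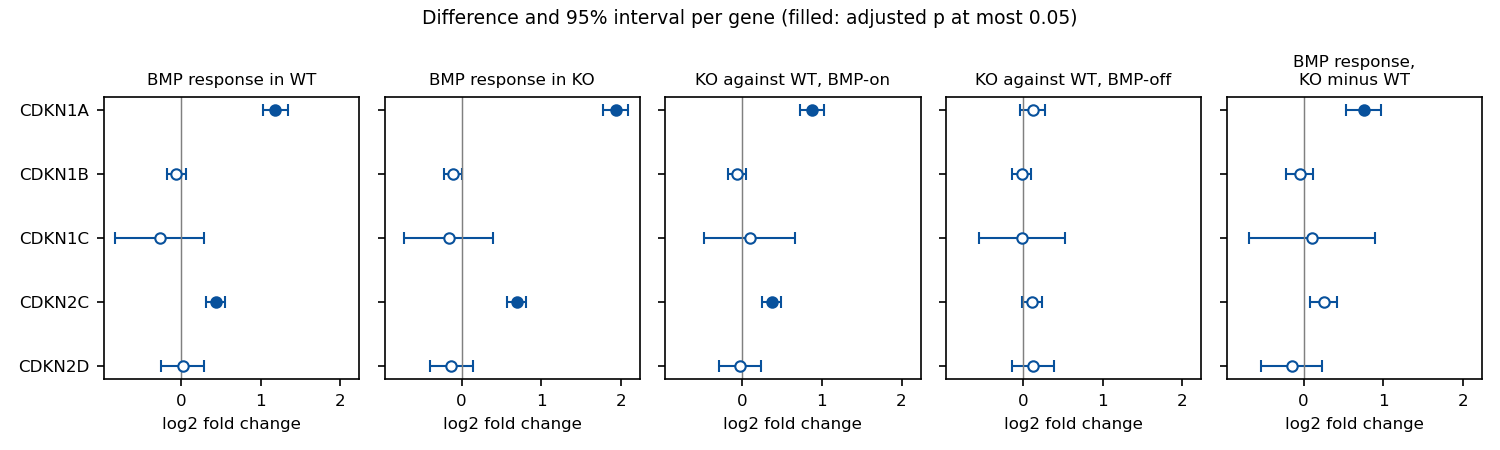
Log2 fold change (points) with its 95% interval (bars) of the 5 tested CDK inhibitor genes in each comparison; filled points have an edgeR adjusted p of at most 0.05. CDKN1A and CDKN2C lie to the right of 0 in both BMP responses and in the KO against WT comparison under BMP-on, CDKN1A alone is filled for the response in KO minus that in WT cells, and no point is filled for KO against WT cells with BMP-off.

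The likeness of other genes to each member was described by Pearson's r of log2 CPM over the 12 libraries, among the genes with a mean of at least 50 counts. These libraries share 4 groups, so that r mostly follows the group means for CDKN1A and CDKN2C, which differ between groups. CDKN1B, CDKN1C and CDKN2D passed in no comparison of the main fit, so their r values need not follow the groups. Each extreme was picked from 12836 or 12837 genes, and no p is given. For CDKN1A the 3 highest were DUSP2, a phosphatase of MAP kinases (r = 0.994), DLX2, a homeobox factor (r = 0.994), and BAMBI, a decoy receptor that dampens BMP and TGF-β signaling (r = 0.993). Among the lowest were HSPA4L (r = -0.993) and TGFBR3, the coreceptor betaglycan (r = -0.992). CDKN2C had DUSP2 (r = 0.992), HABP4 (r = 0.990) and CDKN1A itself (r = 0.989) at the top and PHLDB2 (r = -0.996), HSPA4L (r = -0.990) and TGFBR3 (r = -0.988) at the bottom. The likeness of CDKN1B topped out at 0.927 for ARTN, with ARHGAP21 lowest at -0.92. For CDKN1C the extremes were 0.862 for DEPDC5 and -0.826 for NUDT19, and for CDKN2D 0.822 for FUNDC2P2 and -0.842 for SETDB2. DUSP2 shared the order of the groups with both responding members, with a log2FC of 1.77 in WT cells and 3.00 in KO cells. TGFBR3 ran opposite, with -0.38 and -0.73. Both genes were picked by r over these same libraries, so their group differences follow from that choice and are no separate result.

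Genes within 100 kb of a member were checked for a shared change. The windows hold 53 gene symbols that are no members, of which 20 matched a tested gene. Y_RNA near CDKN1A had 0 counts in every library, so its match is another gene of that symbol. None of the 20 was called in WT cells, in KO against WT cells or in the interaction. In the BMP response of KO cells 5 were called, among them PDE4A (0.47) and KRI1 (0.21) near CDKN2D, SRSF3 (-0.18) near CDKN1A and GPR19 (-0.60) near CDKN1B. In that comparison 11.1% of all genes tested were higher and 10.9% lower, so that the count of neighbors is near the background. FAF1, which starts 478 bases from start 1 of CDKN2C on the other strand, had log2FC values of -0.11 in WT (edgeR adjusted p = 0.209) and -0.08 in KO cells (edgeR adjusted p = 0.192). Near CDKN1A, RAB44 had at most 2 counts and CPNE5 at most 12. GPR19 overlaps CDKN1B on the other strand with 23 to 47 counts. The use of strand in counting is not given in the sources used here, so reads of overlapping partners could not be separated.

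Partners of the inhibitors were read from a list of 12 genes, 11 of them tested, that holds CDKs, cyclins and CDC25A, a phosphatase that activates CDKs, and from a list of 11 genes that break down CIP/KIP proteins. The counts for these and the next lists are to be read against the shares of all genes tested, which were 1.91% higher and 2.01% lower in the WT response, 11.1% and 10.9% in the KO response and 1.32% and 2.34% in KO against WT under BMP-on. In WT cells 1 partner gene rose with BMP, CCND1 (0.26), and 2 fell, CDK1 (-0.26) and CCNB1 (-0.16), with a median log2FC of -0.06 against 0.00 over all genes. In KO cells 1 rose, CCND1 (0.26), and 6 fell, among them CCNE2 (-0.59), CDK1 (-0.50), CCNA2 (-0.44) and CDC25A (-0.41), with a median of -0.33 against 0.01 over all genes. CDK4 and CDK6, the targets of INK4 proteins, also singled out after their values were seen, passed in no comparison, with CDK4 at -0.06 in WT and -0.03 in KO cells and CDK6 at 0.23 and 0.05. When KO was set against WT under BMP-on, 4 of the 11 were lower, CCNB1 (-0.30), CCNA2 (-0.29), CDK1 (-0.27) and CDK2 (-0.19), and with BMP-off none passed.

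Of the 11 turnover genes none passed in WT cells. In KO cells 3 fell with BMP and 1 rose, with a median of -0.04, where 10.9% of all genes were lower and 11.1% higher. DTL, the substrate receptor through which CRL4 ubiquitin ligase marks p21 in S phase, went from 91.7 ± 5.27 to 61.1 ± 2.71 CPM (SD, n = 3 each), a log2FC of -0.59 (SE 0.056, edgeR adjusted p = 1.73e-06). SKP2, the F-box protein that targets p27 and p21, went from 111 ± 5.98 to 82.2 ± 3.55 CPM (SD, n = 3 each; log2FC -0.43, edgeR adjusted p = 2.93e-05). CUL4B (-0.15) fell and RNF123 (0.44), part of a ligase for p27, rose. With BMP-on, DTL was lower in KO than in WT cells (-0.35, edgeR adjusted p = 0.00149).

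A list of 14 E2F targets of DNA replication was tested in full. Whether their changes follow from those of the inhibitors was not tested. In WT cells 4 fell with BMP, TYMS (-0.22), CDC45 (-0.20), PCNA (-0.18) and MCM6 (-0.17), with a median of -0.16. In KO cells 12 of 14 fell, among them RRM2 (-0.51), TYMS (-0.51) and GINS2 (-0.48), with a median of -0.43. TYMS, for instance, had 196 to 211 CPM in WT BMP-off, 173 to 179 CPM in WT BMP-on, 195 to 209 CPM in KO BMP-off and 143 to 144 CPM in KO BMP-on libraries, an order of groups opposite to that of CDKN1A. With BMP-on, 9 of the 14 were lower in KO than in WT cells, with a median of -0.25. None passed with BMP-off or in the interaction. All 14 interaction values were negative (median -0.24), where 9003 of all 17188 genes tested were positive. The 14 genes share the same libraries, so their signs are not 14 separate observations. Of the 15 RB, E2F and DREAM genes, none passed in WT cells. In KO cells 5 fell, among them RBL1 (p107; -0.59), E2F2 (-0.50), LIN9 (-0.32) and LIN52 (-0.30), and 1 rose, with a median of -0.07. RBL1 (-0.40) and E2F2 (-0.30) were also lower in KO than in WT cells under BMP-on.

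**Figure D5:**
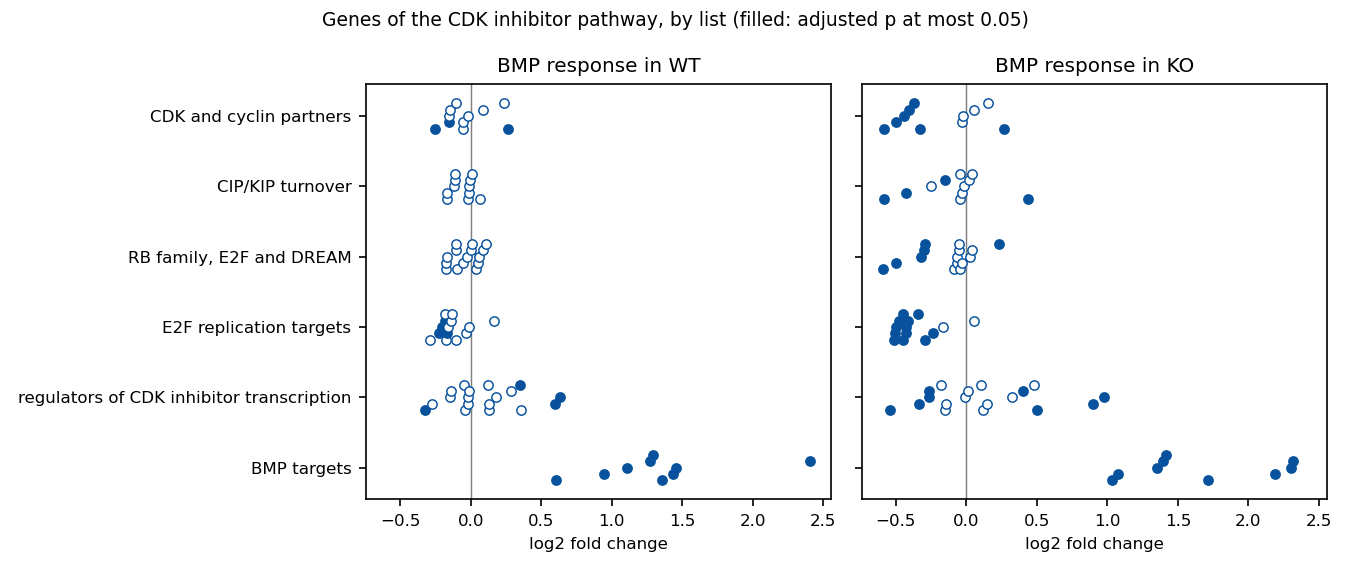
Log2 fold change with BMP in WT cells (left) and KO cells (right) for each tested gene of the lists around the CDK inhibitors; each circle is a gene and filled circles have an edgeR adjusted p of at most 0.05. The 9 BMP targets are filled and positive in both panels, and 12 of the 14 E2F replication targets are filled and negative in KO cells, against 4 in WT cells.

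Of 18 regulators of inhibitor transcription, all tested, 3 rose and 1 fell with BMP in WT cells, with a median of 0.05. KLF4, a zinc-finger factor known to activate CDKN1A, went from 23.1 ± 0.478 to 35.9 ± 2.65 CPM in WT cells (SD, n = 3 each; log2FC 0.64, edgeR adjusted p = 8.60e-05). In KO cells it went from 22.8 ± 1.07 to 45.0 ± 4.12 CPM (SD, n = 3 each; 0.98, edgeR adjusted p = 1.95e-07). FOXO4 (0.60 in WT, 0.90 in KO cells) and FOXO1 (0.35 and 0.50), forkhead factors linked to CDKN1A and CDKN1B, rose as well, and KLF6 fell (-0.32 and -0.54). In KO cells 4 rose, KLF4, FOXO4, FOXO1 and MYC (0.40), and 4 fell, KLF6, EZH2 (-0.34), SP1 (-0.27) and SUZ12 (-0.27). MYC, EZH2, SP1 and SUZ12 were named for this response after their values were seen. With BMP-on, KLF4 (0.32) and MYC (0.31), a repressor of CDKN1A and CDKN2B, were higher and KLF6 (-0.29) lower in KO than in WT cells. None of the 18 passed with BMP-off or in the interaction.

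The 9 BMP targets describe the release of the pathway. This list was chosen with earlier results of these data known, and the paper names BAMBI, NOG and SMAD9 from this experiment. Their rise is therefore no independent check. All 9 rose in WT cells (median 1.29) and in KO cells (median 1.42), led by SMAD9 in WT (2.41) and BAMBI in KO cells (2.31). CDKN1A, at 1.18 in WT and 1.94 in KO cells, lay within the range of these targets, below their median in WT and above it in KO cells. CDKN2C, at 0.44 and 0.69, lay below all 9, of which ID3 was lowest at 0.61 in WT and 1.03 in KO cells. With BMP-on, 6 of the 9 were higher in KO than in WT cells (median 0.52), and with BMP-off SMAD9 was (0.97). In the interaction BAMBI passed (0.96, edgeR adjusted p = 0.00263), as CDKN1A did. In bulk RNA a higher level can come from more transcript in each cell or from a larger share of cells expressing it. A lower level can come from less transcript in each cell or from a smaller share of such cells. These cannot be told apart.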

How the data were processed

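RNA was sequenced by the authors as single-end reads of 50 bases. The deposited counts are whole numbers of reads per gene, made by the authors with GSNAP against GRCh38 and not normalized. The deposited RPKM values were normalized by the authors between libraries, and for each gene they equal the count times 1 factor per library, which was tested on the files. Which library kit was used, and the use of strand, are not given in the sources used here. Symbols, positions and transcript lengths came from GENCODE v44, and 57532 of 58302 identifiers had a symbol. No sample column was left out (0).

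Counts were analysed with R 4.3.3 and edgeR 4.0.16 (TMM, filterByExpr, robust quasi-likelihood fit over all 12 libraries, 17188 genes tested), with Benjamini-Hochberg adjustment within each of 5 comparisons. Calls needed an adjusted p no larger than 0.05. The study itself used limma-voom after quantile normalization. Standard errors are the absolute log2 fold change over the square root of F, and intervals are at 95%. Alternatives were limma-voom with quantile normalization (limma 3.58.1), DESeq2 1.42.0, other scalings and filters, only the groups compared, a replicate block, each library left out, log2(RPKM + 1) and log2(RPKM + 0.1) with a mean RPKM of at least 0.1, log2(RPKM + 1) without a filter, and a GC correction (loess, span 0.4, on the 99.43% of tested genes with a GC value). The script was tested on simulated data.

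The members, the gene lists and the tests were chosen with earlier results of these data known. Named are the members, MIB1, cell type markers, protein-coding or overlapping genes within 100 kb, up to 4 called genes per list and comparison, and the 3 genes most like and most unlike each tested member; others are marked. Some genes that these rules name, and 1 list, are not reported here. Replicate numbers were not used to pair libraries in the main fit. Residuals of same-numbered libraries correlated above 0.1 in 2 of 18 pairs (-0.19 to 0.19). Differently numbered libraries were not compared in this way, so the check cannot decide whether the numbers pair libraries. No 2 libraries agreed within counting noise.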

Additional observations from a re-analysis of the deposited data

Results flagged for a closer look

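The BMP response of CDKN1A differed between MIB1 KO and WT cells in the interaction test. It was larger in KO cells by 0.75 on the log2 scale, with all 3 KO BMP-on libraries above all 3 WT BMP-on libraries and the BMP-off groups overlapping in range (edgeR adjusted p = 0.00843). Over the 23 alternatives the difference was 0.60 to 0.83, with adjusted p values from 2.28e-14 without a filter on low counts to 0.0648 on log2(RPKM + 0.1) values.

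BAMBI, a BMP target, also differed in this test, by 0.96 (edgeR adjusted p = 0.00263). No other member, and no other gene named from the lists, passed it. No group was tested for single outlying libraries, because each holds 3.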

How the results depend on the processing

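CDKN1A and CDKN2C kept their direction and their call in both BMP responses and in MIB1 KO against WT cells under BMP-on under all 24 alternatives of each. With each library left out, CDKN1A ranged from 1.10 to 1.23 in WT, 1.88 to 1.96 in KO and 0.81 to 0.95 in KO against WT cells under BMP-on, and CDKN2C from 0.40 to 0.47, 0.64 to 0.71 and 0.33 to 0.39. The sizes depended more on the GC correction, which took CDKN2C below these ranges, to 0.38, 0.49 and 0.32 in the same order. It also lowered CDKN1A in KO cells to 1.74, while CDKN1A at 1.13 in WT and 0.82 in KO against WT cells stayed within its ranges. With a replicate block, the interaction of CDKN1A (0.75, edgeR adjusted p = 0.0509) lost its call, leaving 0 members and 3 genes called; the block changed no other call of a member. No member was called in the interaction with log2(RPKM + 1), log2(RPKM + 0.1) or unfiltered log2(RPKM + 1) values either (0 in each). The GC correction added a call of CDKN2D in the BMP response of KO cells (-0.44). The cause of these changes was not tested.

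Signs turned only for values that passed the test neither before nor after the change. With the GC correction CDKN2D was -0.066 in the WT response, and CDKN1C -0.00088 in KO against WT cells under BMP-on, 0.14 with BMP-off and -0.14 in the interaction. With BMP-off, CDKN1B was 0.0049 by limma-voom and 6.12e-05 by upper quartile scaling, and CDKN1C 0.0040 by the latter. With each library left out, CDKN2D ranged from -0.071 to 0.148 in the WT response and from -0.098 to 0.0070 in KO against WT cells under BMP-on, CDKN1B from -0.059 to 0.010 with BMP-off, and CDKN1C from -0.41 to 0.10 in the KO response, -0.025 to 0.18 with BMP-on, -0.27 to 0.24 with BMP-off and -0.15 to 0.36 in the interaction.

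Counts of all genes called moved more. In the WT response (674) they were 1047 without a filter, 284 with unfiltered log2(RPKM + 1) values, 1542 with the GC correction and 366 to 1118 with each library left out. In the KO response (3777) they were 2365 with unfiltered log2(RPKM + 1) values and 2314 to 5323 with each library left out. In KO against WT cells under BMP-on (630) they were 1237 with only the groups compared, 406 with log2(RPKM + 0.1), 268 with unfiltered log2(RPKM + 1), 1262 with the GC correction and 326 to 862 with each library left out. With BMP-off (7) they were 35 by DESeq2, 233 without a filter, 3 with only the groups compared, 3 with log2(RPKM + 1), 4 with log2(RPKM + 0.1), 95 with the GC correction and 2 to 50 with each library left out. In the interaction (16) they were 154 by DESeq2, 10 by library size only, 318 without a filter, 4 with log2(RPKM + 1), 2 with log2(RPKM + 0.1), 242 with the GC correction and 4 to 236 with each library left out. Depth limits CDKN1C, with 18 to 41 counts per library. CDKN2A and CDKN2B had 0 in every library, and the cause of their zeros was not tested. A fit of only the groups compared does not apply to the interaction.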
